A study of Mus musculus with 36 samples.

Results

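The genes described here are the 35 mouse genes that carry out or steer glycolysis and gluconeogenesis, from the glucose transporters at the cell surface to the lactate dehydrogenases and the enzymes that run the pathway towards glucose. They were taken by name, as the genes of the count table whose Ensembl identifier maps to 35 given symbols, a rule that uses no measured value, although the list was drawn up with earlier results of these data known. All 35 were found among the 54347 genes of the table, and all 35 passed the filter on low counts, which asked for more than 1 CPM in at least 6 libraries. A further entry that also maps to Aldoa, with at most 21 counts in a library, was left out of the tests.

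Glycolysis splits glucose into pyruvate in the cytosol, and most of its steps can be run by any of several isozymes that differ between tissues in kinetics and control. The steps that are nearly irreversible, at hexokinase, phosphofructokinase and pyruvate kinase, are bypassed in gluconeogenesis by glucose-6-phosphatase, fructose-bisphosphatase, pyruvate carboxylase and phosphoenolpyruvate (PEP) carboxykinase, a route best known from liver and kidney. Skeletal muscle expresses its own set of isozymes, while liver is known for its own glucose transporter and pyruvate kinase.

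RNA was sequenced from 4 kinds of primary mouse cell kept in culture, each exposed for 6 h to PBS as control, to 5 mM β-hydroxybutyrate (bOHB, a ketone body) or to 5 mM butyrate (a short-chain fatty acid), with 3 libraries for each of the 12 groups and 36 in all. Adipocytes were differentiated in culture from the stromal vascular fraction of inguinal fat of C57Bl/6 males with a cocktail that included dexamethasone, insulin and rosiglitazone, and their differentiation was judged by eye. Macrophages were grown from bone marrow of C57Bl/6 males with L929-conditioned medium, and myotubes came from myoblasts of C57Bl/6 hindlimb muscle. Hepatocytes were freshly isolated from C57BL/6NHsd males and rested overnight before treatment. Adipocytes and macrophages were treated in DMEM with serum, myotubes in a Ham's F-10 medium with horse serum and hepatocytes in Williams E medium, and some of the cells were obtained at another site. Cell type, culture medium and source of the mice therefore cannot be told apart in a comparison of the 4 cell types, whereas the treatments were compared within 1 cell type each time. The labels do not say that the 3 libraries of a group came from separate animals or cultures, so the p-values measure only the spread between these libraries, which may be technical.

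Library totals ran from 18366289 to 23221473 estimated counts. In hepatocytes, macrophages and myotubes the markers of their own kind stood far above those of other cells: the summed level of 5 hepatocyte markers (Alb, Apoa1, Ttr, Cyp2e1 and Tat) lay between 30534 and 40748 CPM (reads of a gene relative to all reads of its library) in the 9 hepatocyte libraries, and that of 6 macrophage markers between 10516 and 17131 CPM in the 9 macrophage libraries. In adipocytes the lists were closer, with 5 adipocyte markers between 7637 and 8322 CPM in the controls and 4 fibroblast markers (Col1a1, Pdgfra, Thy1 and Dcn) between 3885 and 4419 CPM there and up to 5854 CPM in a bOHB library. The fibroblast markers lay between 883 and 1517 CPM in the macrophage libraries and between 778 and 1164 CPM in the myotube libraries. With butyrate 2 of 4 were called higher and 0 lower in myotubes. Endothelial markers (Pecam1, Cdh5, Kdr and Tek) fell with butyrate in hepatocytes, from between 64.6 and 72.1 to between 19.7 and 23.3 CPM, with 4 of 4 called. They also fell in adipocytes, from between 176 and 202 to between 117 and 134 CPM, with 2 of 4 called. In macrophages 2 of 4 were called lower, with sums that overlapped, and in myotubes 1 was called higher and 1 lower. Proliferation markers (Mki67, Top2a and Ccnb1) fell with butyrate in macrophages, from between 1306 and 1342 to between 509 and 607 CPM, with 3 of 3 called. In myotubes they went from between 29.5 and 64.5 CPM in the controls to between 11.2 and 16.3 CPM with butyrate, with 3 of 3 called, and to between 17.3 and 22.2 CPM with bOHB, with 2 of 3 called. The part of these lists in the values of the 35 genes was not tested. Markers of another kind of cell also reached some myotube libraries, and they moved with the treatment. Hepatocyte markers summed to 28.4, 517 and 118 CPM in the 3 myotube libraries with butyrate, against at most 0.0440 CPM in the controls and 0.0459, 0 and 22.1 CPM with bOHB. Macrophage markers summed to 271, 218 and 105 CPM in the myotube controls, 57.6, 42.2 and 104 CPM with bOHB and 15.5, 68.5 and 24.9 CPM with butyrate. Results on myotubes are given with these values beside them where they are touched. In all of these bulk libraries fewer cells of a type and less RNA per cell cannot be told apart.

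Levels are given in CPM scaled with the trimmed mean of M values (TMM) method within 1 gene, and in CPM per kilobase of merged exon (RPKM) where genes are set beside each other. Differences are log2 fold changes from edgeR's quasi-likelihood test over all 36 libraries, with standard errors (SE) and p-values adjusted by the Benjamini-Hochberg method over the 15340 genes tested. A gene is said to have risen or fallen where the adjusted p was below 0.05.

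The 4 cell types used different isozymes of the same steps. The controls differed between cell types for all 35 genes by edgeR's quasi-likelihood F test, against 98.5% of all genes tested, so the count says little about these genes, and the description rests on levels. For 11 enzyme families the share of each isozyme among the members of its family within the 35 genes was computed from RPKM in each control library. In 5 of the 11 families the same isozyme led in all 4 cell types, namely Slc2a1, Aldoa, Pkm, Ldha and Pfkfb3. The families depended on the length measure. With the mean transcript length the count was again 5, with the glucose transporters out (Slc2a4 led in myotubes) and the hexokinases in (Hk1 led in all 4 cell types), and with no length correction it was 6, with the phosphoglycerate mutases added.

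**Figure D1:**
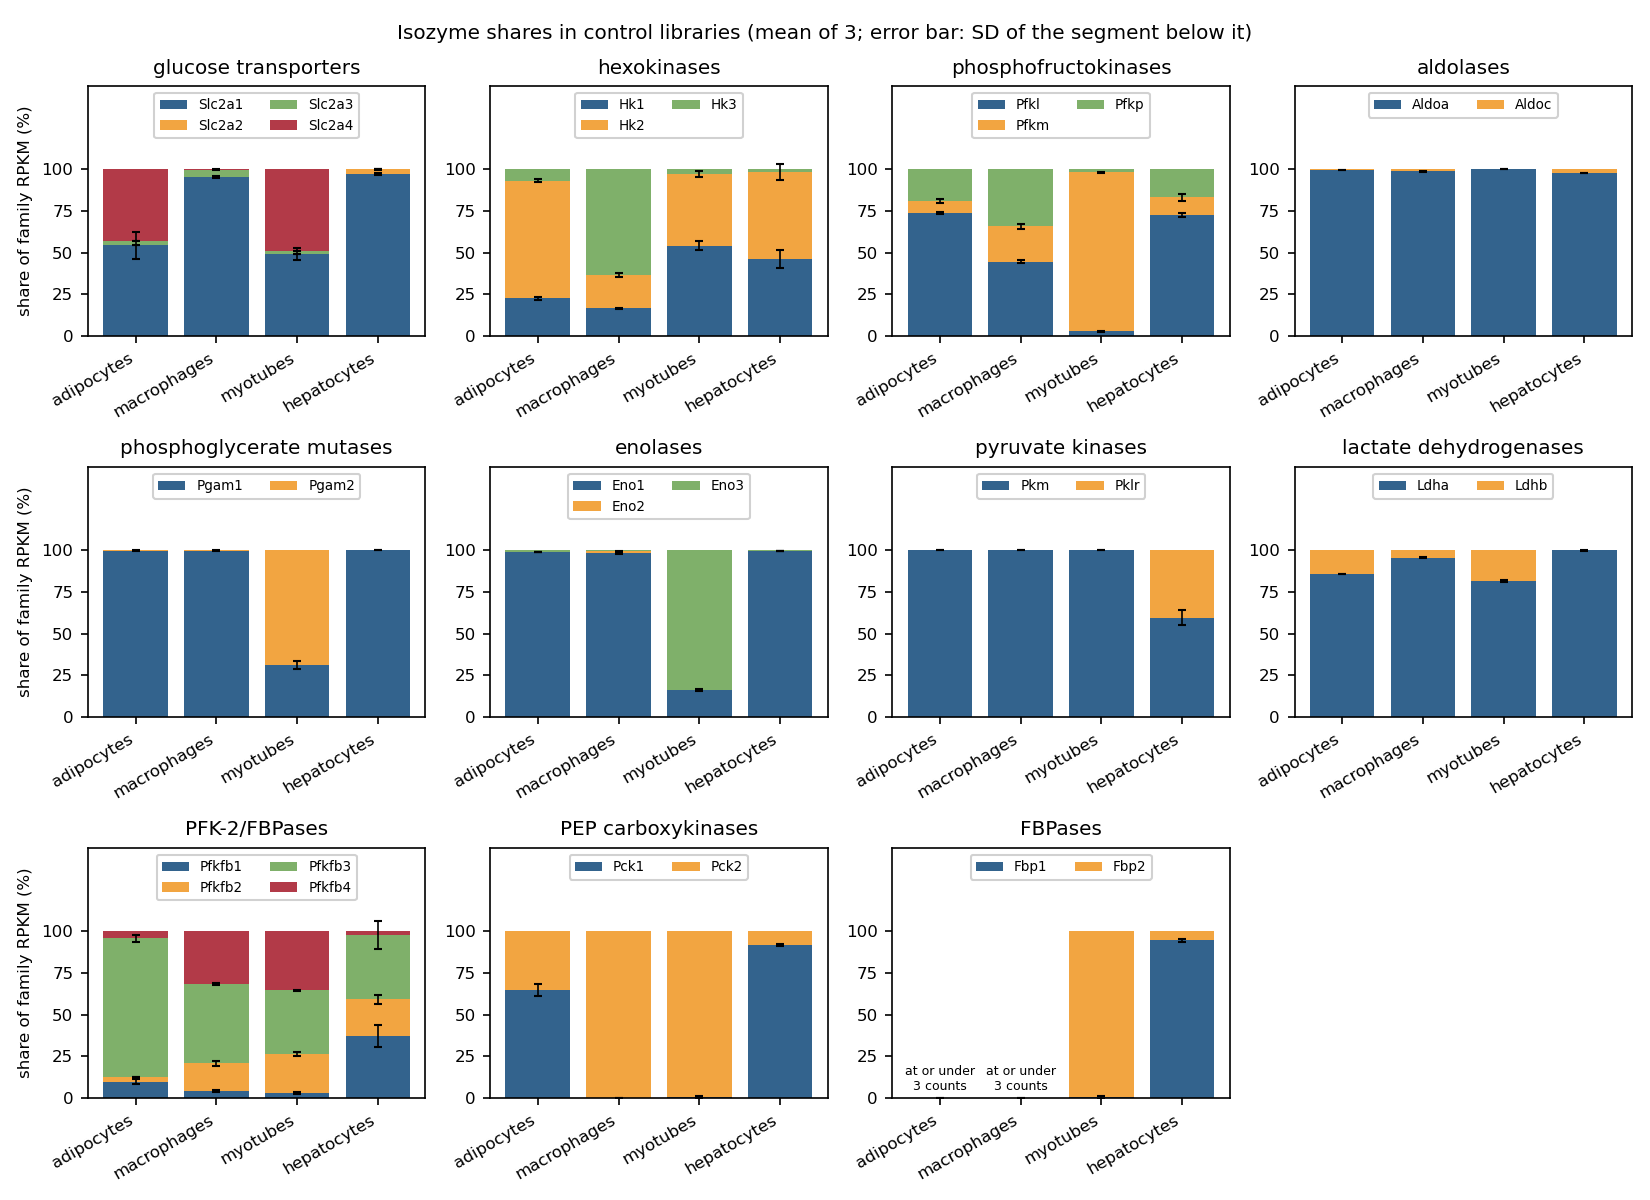
Share of each isozyme in the summed RPKM of its family (%, y axis) in the control libraries of 4 cell types (x axis), as the mean of 3 libraries with the SD of each segment as its error bar. Myotubes stand apart by Pfkm, Pgam2, Eno3 and Fbp2, hepatocytes by Pklr and Fbp1, and macrophages by Hk3; Fbp genes were at or under 3 counts in adipocytes and macrophages.

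Glucose enters through facilitative transporters of the Slc2a family. Slc2a1, which encodes the widespread GLUT1, held 94.9, 96.0 and 95.3% of the family's RPKM in the 3 macrophage controls and 97.1, 97.6 and 96.9% in the 3 hepatocyte controls. In adipocytes and myotubes it shared the lead with Slc2a4, the insulin-responsive GLUT4 of fat and muscle: Slc2a1 stood at 54.3% ± 8.10 and Slc2a4 at 43.0% ± 7.99 in adipocytes (SD, n = 3), and the values were 49.3% ± 3.73 and 49.1% ± 3.90 in myotubes, where the order of these 2 genes is within the spread between libraries. Slc2a2, the liver transporter GLUT2, was 2.80% ± 0.323 of the family in these hepatocytes, with 6.52, 8.24 and 8.52 CPM in the 3 controls. Slc2a3, the high-affinity GLUT3, had 13.6, 11.5 and 10.1 CPM in adipocytes and no count in the hepatocyte controls.

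Hexokinases trap glucose as glucose 6-phosphate, and by merged exons the cell types differed in their order. Hk3 led in macrophages at 62.1, 65.0 and 63.0% of the family, Hk2 in adipocytes at 69.8, 71.7 and 70.2% and Hk1 in myotubes at 51.4, 54.3 and 56.9%. In hepatocytes Hk2 and Hk1 were close, at 52.4% ± 4.85 and 46.1% ± 5.57, and the summed level was low, at 2.93 RPKM against 61.7 RPKM in macrophages. The order within the hexokinases depended on the length used: by mean transcript length the share of Hk3 in macrophages was 37.6% and that of Hk2 in adipocytes 46.6%, and Hk1 led in all 4 cell types.

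Muscle isozymes set the myotubes apart in the middle of the pathway. Pfkm, the muscle subunit of phosphofructokinase, held 94.9, 95.4 and 95.5% of the family in the 3 myotube controls, whereas Pfkl, the liver subunit, led in adipocytes at 74.2, 73.4 and 73.3%, in hepatocytes at 71.7, 72.5 and 74.0% and, by merged exons, in macrophages at 44.4, 43.7 and 45.5%. With either other length measure Pfkp, the platelet form, led in the macrophage controls, and Pfkl was at 34.2% by mean transcript length and 36.0% with no length correction. The mutase Pgam2 made up 66.0, 69.4 and 70.7% of the phosphoglycerate mutases in myotubes and at most 0.167% as a mean of the other cell types' controls. With no length correction the share of Pgam2 in myotubes was 48.3%, behind Pgam1. Eno3, the muscle enolase, made up 83.3, 84.5 and 83.5% in myotubes, whereas Eno1 held 99.7, 99.7 and 99.6% in hepatocytes, 99.3, 99.0 and 99.0% in adipocytes and 98.4, 98.2 and 98.1% in macrophages. Eno2, the enolase best known from neurons, was low in every control group, from 0.0344 ± 0.0192 RPKM in hepatocytes to 1.97 ± 0.153 RPKM in macrophages (SD, n = 3).

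The aldolase, pyruvate kinase and lactate dehydrogenase families were led by the same gene in all 4 cell types. Aldoa held between 97.8% in hepatocytes and 99.8% in adipocytes, and more in myotubes, of the sum with Aldoc, the brain form. Pkm was 56.4, 64.7 and 57.6% of pyruvate kinase in the 3 hepatocyte controls, with Pklr, the liver and red cell form, supplying the rest (40.5% ± 4.48 by merged exons and 18.4% by mean transcript length) at 176, 185 and 196 CPM, and Pklr was at or under 3 counts over the 3 controls of each other cell type. Ldha, the dehydrogenase subunit that favours lactate formation, ranged from 81.7% ± 0.763 in myotubes to 99.9% ± 0.0625 in hepatocytes.

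The bifunctional Pfkfb enzymes make and remove fructose 2,6-bisphosphate, the activator of phosphofructokinase. Pfkfb3 led them in adipocytes at 85.4, 83.3 and 81.1%, in macrophages at 48.2, 47.2 and 47.1% and in myotubes at 38.0, 38.6 and 38.7%. In hepatocytes Pfkfb3 at 38.6% ± 8.40 and Pfkfb1, the liver form, at 37.1% ± 6.40 did not differ beyond their spread.

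The enzymes particular to gluconeogenesis were unevenly spread. Pck1, the cytosolic PEP carboxykinase, was 92.6, 91.9 and 91.4% of its family in hepatocytes and 69.0, 63.9 and 62.2% in adipocytes, where it also serves glyceroneogenesis, and the lead in adipocytes passed to the mitochondrial Pck2 with either other length measure, with Pck1 at 43.2% by mean transcript length. Pck2 made up 99.2% ± 0.705 in myotubes, and in macrophages Pck1 had no count. Fbp1, the liver fructose-bisphosphatase, was 94.6, 95.6 and 93.4% of its pair in hepatocytes, Fbp2, the muscle form, was 100.0, 98.4 and 100.0% in myotubes, and both were at or under 3 counts in the adipocyte and macrophage controls. G6pc, which releases free glucose in liver, had 15.8, 14.6 and 11.2 CPM in the hepatocyte controls and at most 3 counts in the other 3 control groups. Pcx, the pyruvate carboxylase that feeds oxaloacetate, was highest in adipocytes at 126 ± 2.17 RPKM, followed by hepatocytes at 44.3 ± 7.52, myotubes at 6.40 ± 0.656 and macrophages at 1.71 ± 0.0455, with no overlap between neighbours in that order.

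Butyrate changed many of these genes in every cell type, in both directions. In hepatocytes 18 of the 35 rose and 7 fell, in myotubes 15 rose and 6 fell, in macrophages 14 rose and 7 fell, and in adipocytes 11 rose and 5 fell. The share of all genes tested that changed was 61% in adipocytes, 65% in macrophages, 66.5% in myotubes and 63.5% in hepatocytes, so the 16, 21 and 21 called members of the first 3 lay under that share of 35 and the 25 of hepatocytes over it, and no test of these counts against the background was made. Among all genes the directions were about even: 30.7%, 31.9%, 33.1% and 31% rose, and 30.3%, 33.2%, 33.4% and 32.4% fell, with the cell types in that order. Among the members 9, 8, 10 and 14 were called with an absolute log2 fold change of at least 1, beside 16.6%, 20.9%, 20.6% and 22.4% of all genes, and 12, 17, 16 and 23 had an unadjusted p below 0.001, the threshold of the study, beside 45.6%, 49.7%, 49.9% and 49.3%. The median log2 fold change of the 35 was 0.62 in hepatocytes, 0.21 in myotubes, 0.08 in macrophages and 0 in adipocytes, beside medians of -0.01, 0, 0 and 0 over all genes. Libraries of the 2 groups did not overlap for 17, 27, 18 and 28 members in adipocytes, macrophages, myotubes and hepatocytes, against 67.3%, 72.2%, 64.8% and 68.5% of all genes. Scaled by library totals alone, which moved the median of all genes by 0.20 in macrophages and 0.13 in myotubes, the members split 16 up and 4 down in macrophages and 17 up and 4 down in myotubes, and no called member changed direction. Under that scaling 6685 of the 15340 genes tested rose and 3339 fell in macrophages, and 6271 rose and 3873 fell in myotubes.

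**Figure D2:**
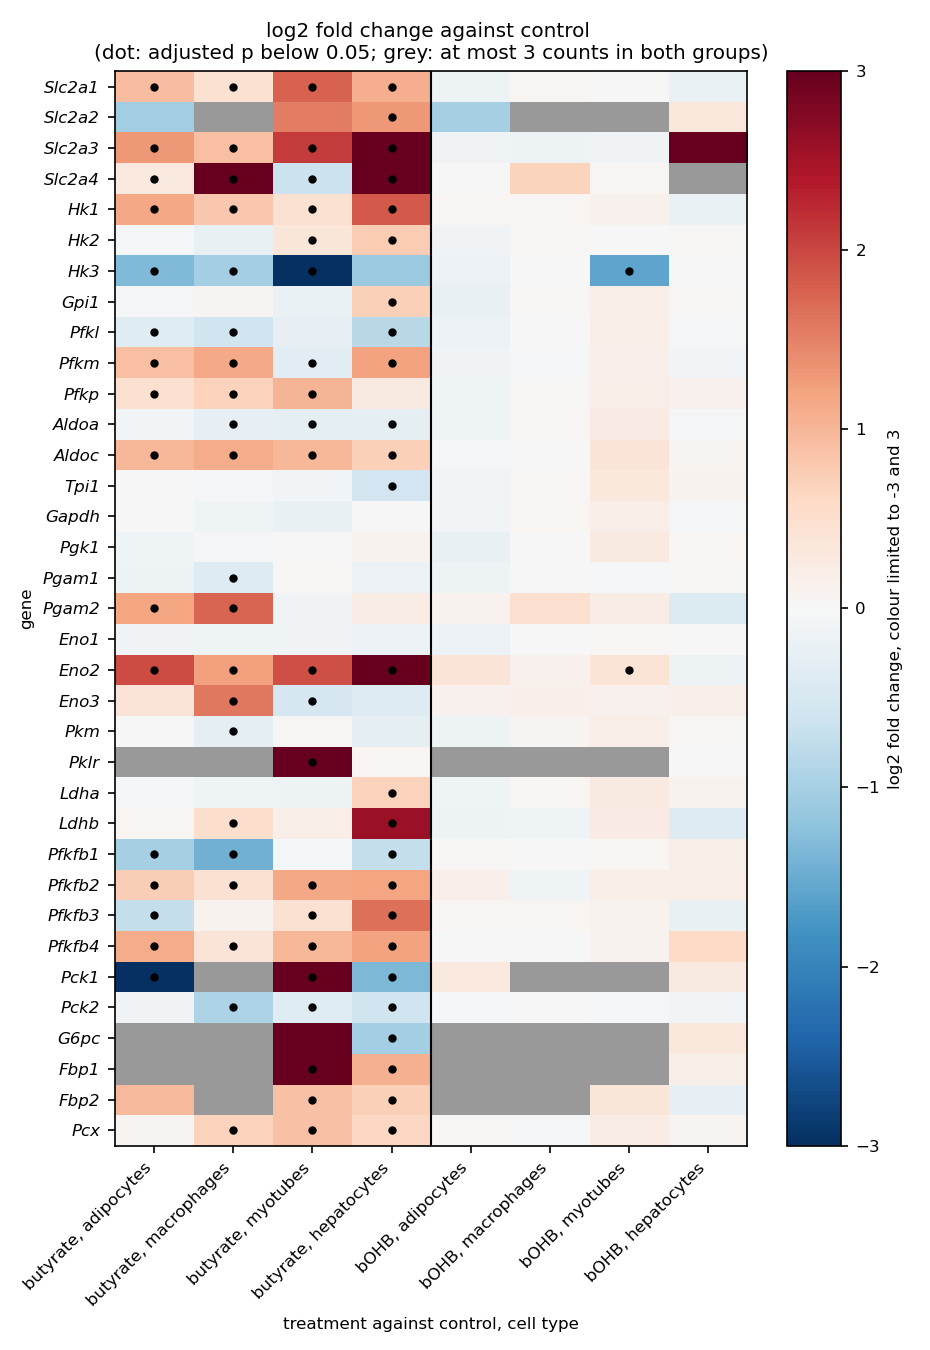
Log2 fold change against control (colour, limited to -3 and 3) for 35 genes (y axis) under butyrate and bOHB in 4 cell types (x axis), with a dot where the adjusted p was below 0.05 and grey where both groups had at most 3 counts. The butyrate columns hold 16, 21, 21 and 25 dots from adipocytes to hepatocytes, and the bOHB columns hold 2, both in myotubes.

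Of the 35, 7 rose in all 4 cell types: Slc2a1, Slc2a3, Hk1, Aldoc, Eno2, Pfkfb2 and Pfkfb4. Among all genes tested 12.5% did so, and 12.7% fell in all 4, as none of the 35 did. Most of the 7 are minor isozymes of their families in the controls; by merged exons Slc2a1 in every cell type and Hk1 in myotubes were the leading ones.

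Eno2 rose by at least 1.23 on the log2 scale in each cell type. It went from 0.188, 0.0615 and 0.237 CPM in the hepatocyte controls to 2.49, 2.48 and 2.64 CPM with butyrate (log2 fold change 3.91, SE 0.27, adjusted p = 1.09e-13). In adipocytes it went from 1.34, 1.55 and 1.18 to 5.37, 4.99 and 5.47 CPM (log2 fold change 1.95, SE 0.14, adjusted p = 2.94e-13). Myotubes had 5.73, 5.59 and 6.47 and 22.5, 24.8 and 20.9 CPM (log2 fold change 1.94, SE 0.10, adjusted p = 2.55e-16). All treated libraries lay above all controls in these 3 cell types, and the same held in macrophages, where 8.90, 8.77 and 10.1 CPM rose to 20.8, 21.1 and 23.3 (log2 fold change 1.23, SE 0.10, adjusted p = 1.56e-12). Even so, Eno2 stayed under 3% of the enolase RPKM in each treated group.

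The glucose transporters Slc2a1 and Slc2a3 rose together. Slc2a1 went from 39.2, 39.1 and 36.2 to 119, 116 and 158 CPM in myotubes (log2 fold change 1.78, SE 0.19, adjusted p = 2.21e-09), and it rose by 1.09 in hepatocytes and 0.93 in adipocytes on the log2 scale. In macrophages 66.3, 69.2 and 67.8 CPM rose to 91.6, 92.6 and 93.6, without overlap, and the call there was slight (adjusted p = 0.0342): it was lost without any 1 of the 3 controls or without butyrate library 2 or 3, with values between 0.43 and 0.47. Slc2a3 rose from 13.6, 11.5 and 10.1 to 31.6, 27.8 and 27.6 CPM in adipocytes (log2 fold change 1.30, SE 0.10, adjusted p = 1.06e-11). In myotubes it rose from 2.61, 2.33 and 2.51 to 11.1, 10.8 and 10.3 CPM (log2 fold change 2.11, SE 0.13, adjusted p = 6.26e-14). Hepatocytes had no Slc2a3 count in any control and 0.689, 0.496 and 0.661 CPM with butyrate, at least 9.99-fold higher when 3 counts over the control group are taken as the floor, and both groups were under 1 CPM.

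Hk1, a hexokinase that can bind mitochondria, rose in hepatocytes from 8.97, 15.6 and 9.70 to 37.4, 42.8 and 41.7 CPM (log2 fold change 1.83, SE 0.13, adjusted p = 1.07e-13), which made it 63.2, 65.8 and 63.8% of the hexokinase RPKM there. In adipocytes it went from 72.8, 58.8 and 57.9 to 146, 139 and 139.6 CPM (log2 fold change 1.16, SE 0.10, adjusted p = 3.78e-11), and the rises in macrophages and myotubes were 0.81 and 0.45. Aldoc rose from 17.2, 15.7 and 15.2 to 33.2, 33.8 and 37.1 CPM in macrophages (log2 fold change 1.11, SE 0.13, adjusted p = 4.96e-09). In adipocytes Aldoc went from 5.59, 3.83 and 4.10 to 9.32, 9.11 and 8.66 CPM and in myotubes from 1.01, 1.67 and 1.06 to 2.52, 2.95 and 2.01 CPM, with log2 fold changes of 1.00 and 1.00, and the hepatocyte value was 0.72. Every treated library exceeded every control for both genes in all 4 cell types.

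The other members of the 7 are bifunctional regulators. Pfkfb4, a form known from testis and tumours, rose from 7.06, 6.59 and 8.28 to 15.1, 15.1 and 17.2 CPM in adipocytes (log2 fold change 1.11, SE 0.11, adjusted p = 1.74e-10). In hepatocytes it rose from 1.07, 0.615 and 0.887 to 2.44, 1.88 and 1.62 CPM (log2 fold change 1.21, SE 0.23, adjusted p = 2.26e-05), and the values were 0.98 in myotubes and 0.39 in macrophages. Pfkfb2, the heart form, rose from 6.47, 5.90 and 6.55 to 13.0, 15.0 and 14.3 CPM in myotubes (log2 fold change 1.16, SE 0.12, adjusted p = 1.21e-09), by 1.19 in hepatocytes, 0.74 in adipocytes and 0.46 in macrophages. In butyrate-treated myotubes Pfkfb4 was the leading form by merged exons, at 39.3% ± 1.77 against 29.9% ± 0.247 for Pfkfb3.

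**Figure D3:**
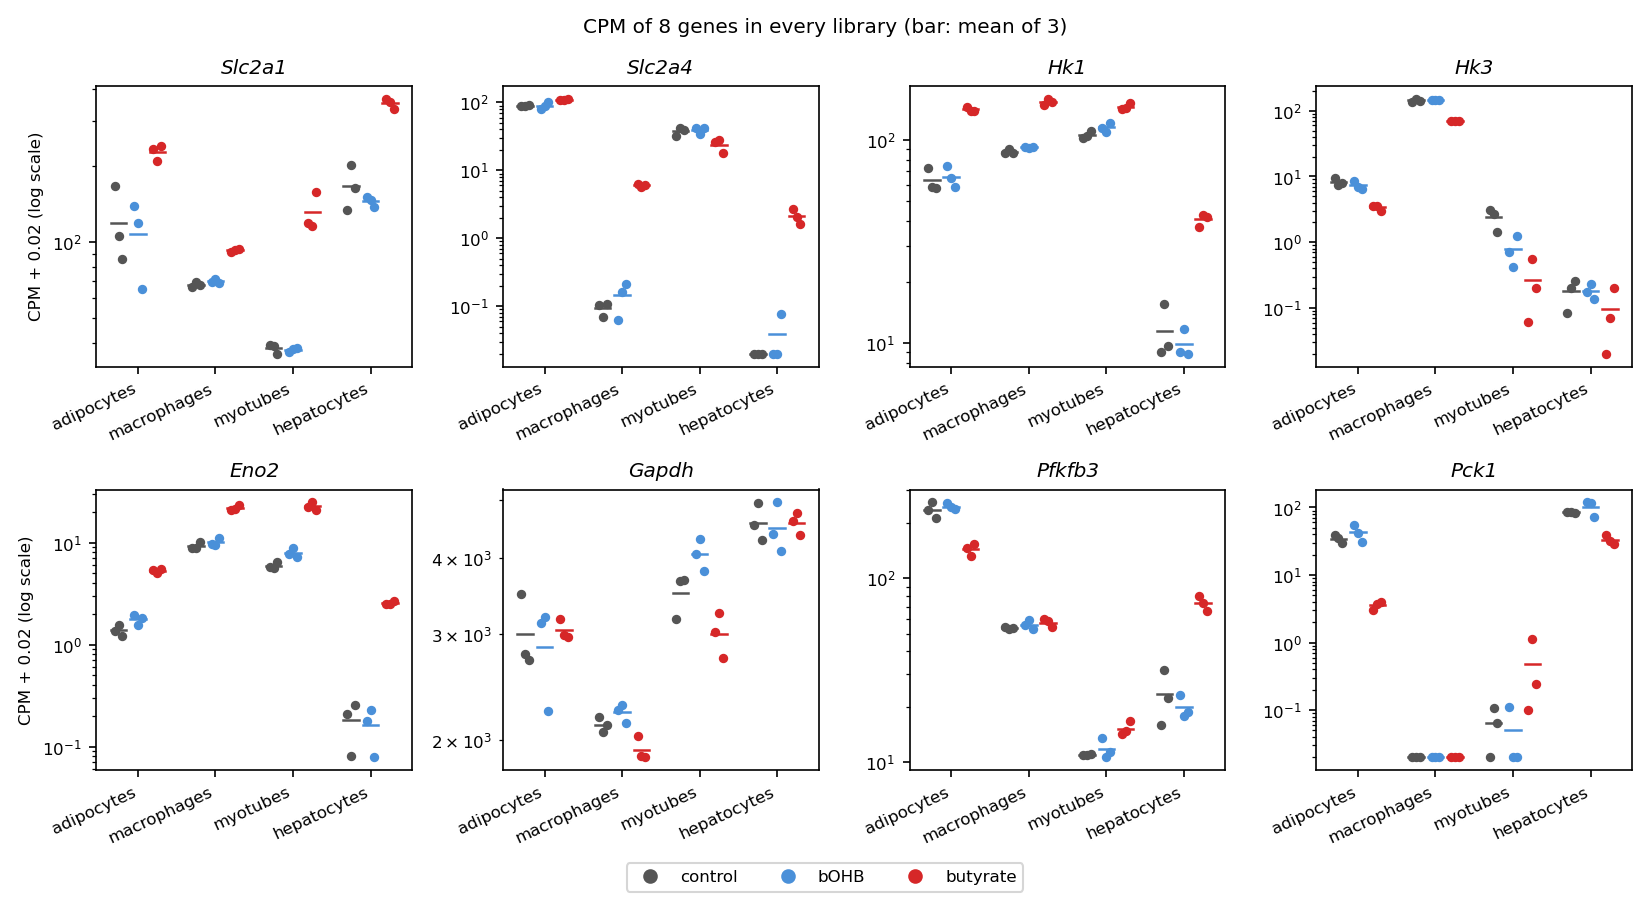
Level in each library (CPM plus 0.02, log y axis) of 8 genes in control, bOHB and butyrate libraries of 4 cell types (x axis), 3 points a group and a bar at their mean. Eno2 butyrate points lie above all control points in every cell type, whereas the bOHB points of Eno2 lie above all control points in myotubes and overlap them in the other 3 cell types.

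The promoters of genes that moved in the same way are shown for those with a single start site in the RefSeq table: Slc2a1, Eno2 and Pfkfb4, which rose in all 4 cell types, and Gapdh and Pgk1, which were called in none. Each sequence is the 250 bases before the start, 5′ to 3′ on the gene's strand, from RefSeq on GRCm38.p6, and capitals mark 4 short motifs on either strand, the GC box GGGCGG, the hypoxia response core ACGTG, the CCAAT box CCAAT and the TATA box TATAAA. The windows are chr4:119108495-119108744 on the plus strand, chr6:124769674-124769923 on the minus strand, chr9:108991652-108991901 on the plus strand, chr6:125165774-125166023 on the minus strand and chrX:106186850-106187099 on the plus strand. GENCODE places some starts elsewhere: its Gapdh gene covers the whole Gapdh window, and its Slc2a1 and Pfkfb4 genes begin within theirs.
Slc2a1: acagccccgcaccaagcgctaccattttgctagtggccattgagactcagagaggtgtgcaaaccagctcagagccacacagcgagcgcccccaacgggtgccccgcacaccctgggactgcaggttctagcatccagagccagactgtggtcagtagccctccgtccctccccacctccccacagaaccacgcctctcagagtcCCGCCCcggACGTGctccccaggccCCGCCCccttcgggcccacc
Eno2: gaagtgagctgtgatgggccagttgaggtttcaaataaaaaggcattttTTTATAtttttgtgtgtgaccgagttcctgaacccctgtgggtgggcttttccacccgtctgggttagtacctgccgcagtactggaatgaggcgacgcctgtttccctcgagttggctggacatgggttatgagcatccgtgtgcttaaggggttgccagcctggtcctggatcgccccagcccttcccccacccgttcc
Pfkfb4: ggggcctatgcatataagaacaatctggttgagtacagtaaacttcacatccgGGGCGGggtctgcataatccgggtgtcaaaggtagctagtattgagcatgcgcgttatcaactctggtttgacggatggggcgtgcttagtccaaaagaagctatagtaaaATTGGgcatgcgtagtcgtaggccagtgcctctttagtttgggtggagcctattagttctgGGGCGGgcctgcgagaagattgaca
Gapdh: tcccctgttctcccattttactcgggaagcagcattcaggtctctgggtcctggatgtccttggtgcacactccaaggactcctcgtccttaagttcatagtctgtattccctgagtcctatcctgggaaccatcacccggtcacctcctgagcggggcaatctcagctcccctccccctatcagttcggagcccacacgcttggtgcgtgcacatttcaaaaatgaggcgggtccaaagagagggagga
Pgk1: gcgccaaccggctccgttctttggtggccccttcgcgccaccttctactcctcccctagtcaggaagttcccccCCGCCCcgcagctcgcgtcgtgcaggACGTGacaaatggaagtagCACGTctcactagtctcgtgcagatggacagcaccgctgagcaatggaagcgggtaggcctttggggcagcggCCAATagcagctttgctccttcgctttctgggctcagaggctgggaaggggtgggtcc

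Of the 35 genes, 33 matched the promoter table, 6 of the 7 that rose in all 4 cell types among them, and Slc2a3 and Slc2a4 were not matched. The GC box was found before 4 of these 6 and 15 of the other 27, and before 35.4% of all 27025 genes of the table, a gene counting where any of its windows holds the motif (32.7% of the windows). The hypoxia response core was found before 2 of 6 and 11 of 27 (18.5% of all genes), the CCAAT box before 2 of 6 and 16 of 27 (37.5%) and the TATA box before 1 of 6 and 3 of 27 (14.3%). The Slc2a1 and Pgk1 windows both hold the GC box and the hypoxia response core, although Slc2a1 rose everywhere and Pgk1 was called nowhere. A match of these letters is a description and not a bound site.

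Slc2a4, Pfkm, Eno3, Pfkfb3 and Pck1 moved in opposite directions in different cell types, as 19.3% of all genes did. For 3 of them, Slc2a4, Pfkm and Eno3, the fall was in myotubes and the rises were in other cell types. Control levels of Pfkm and Eno3 were highest in myotubes, and those of Slc2a4 in adipocytes, at 89.3, 88.2 and 90.6 CPM. Slc2a4 rose from 0.0848, 0.0504 and 0.0865 to 6.39, 5.65 and 6.17 CPM in macrophages (log2 fold change 6.23, SE 0.39, adjusted p = 4.69e-14), while in myotubes it fell from 32.3, 42.2 and 39.2 to 26.2, 27.9 and 17.8 CPM (log2 fold change -0.66, SE 0.12, adjusted p = 3.04e-05). The groups did not overlap in either. Hepatocytes had no Slc2a4 count in the controls and 2.70, 2.03 and 1.62 CPM with butyrate, at least 35.0-fold higher against the floor of 3 counts. In adipocytes the log2 fold change was 0.30, and the call was lost without control library 2 (adjusted p = 0.0581) or butyrate library 3 (adjusted p = 0.0679). The share of Slc2a1 in the transporter RPKM of myotubes reached 81.2% ± 5.29 with butyrate.

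Pfkm rose from 13.2, 13.9 and 11.9 to 29.3, 28.0 and 28.8 CPM in macrophages (log2 fold change 1.15, SE 0.10, adjusted p = 1.10e-11) and from 11.9, 11.9 and 9.34 to 26.8, 25.2 and 24.7 CPM in hepatocytes (log2 fold change 1.21, SE 0.11, adjusted p = 1.65e-11), and by 0.90 in adipocytes. In myotubes it fell from 487, 542 and 507 to 442, 447 and 338 CPM (log2 fold change -0.32, SE 0.08, adjusted p = 7.00e-04). Eno3 rose from 1.95, 2.37 and 2.08 to 5.61, 5.26 and 8.24 CPM in macrophages (log2 fold change 1.58, SE 0.17, adjusted p = 2.10e-09). In myotubes Eno3 fell from 930.5, 1003 and 925 to 734, 709.7 and 568 CPM (log2 fold change -0.51, SE 0.10, adjusted p = 3.26e-05), and it remained the leading enolase there at 78.9% ± 3.98. Myotube markers moved alongside, with 3 of 5 called lower in myotubes and 5 of 5 called higher in macrophages: they summed to 19528, 23922 and 24660 CPM in the myotube controls and 17431, 17593 and 12127 CPM with butyrate, and to 5.81, 11.7 and 7.27 CPM in macrophage controls and 18.5, 21.4 and 52.5 CPM in treated macrophages. In hepatocytes they summed to between 25.0 and 26.0 CPM in the controls and between 42.1 and 46.9 CPM with butyrate. There 1 of the 5 markers was called higher and 0 lower, and in adipocytes 0 were called. The part of the myotube markers in the Pfkm, Eno3 and Slc2a4 values was not tested.

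Pfkfb3 rose in hepatocytes from 15.9, 31.8 and 22.4 to 79.6, 72.9 and 66.7 CPM (log2 fold change 1.64, SE 0.13, adjusted p = 2.87e-12) and fell in adipocytes, its cell type of highest level, from 234, 258 and 213 to 146, 132 and 153 CPM (log2 fold change -0.71, SE 0.12, adjusted p = 3.51e-06). Pck1 fell in adipocytes from 38.7, 35.8 and 29.6 to 3.06, 3.71 and 3.90 CPM (log2 fold change -3.28, SE 0.26, adjusted p = 7.61e-11), and with butyrate Pck2 held 85.5, 81.8 and 81.1% of the family RPKM there. In hepatocytes Pck1 fell from 86.5, 85.0 and 81.8 to 38.8, 32.0 and 28.4 CPM (log2 fold change -1.35, SE 0.21, adjusted p = 2.88e-06). The groups did not overlap in these comparisons. Adipocyte markers, 5 genes, summed to between 7637 and 8322 CPM in adipocyte controls and between 6116 and 7474 CPM with butyrate. Most of this sum is Fabp4, and 3 of the 5 were called lower, Plin1 (log2 fold change -1.26), Cidec (-1.08) and Adipoq (-0.50). The part of the markers in the Pck1 value was not tested. The Pck1 rise in myotubes is described with the hepatocyte markers.

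Among the remaining hexose steps, Hk3, the hexokinase of blood cells, fell in 3 cell types. In macrophages it fell from 137, 152 and 143 to 70.9, 70.9 and 70.9 CPM (log2 fold change -1.02, SE 0.12, adjusted p = 8.26e-09), and its share of hexokinase RPKM went from 63.4% ± 1.45 to 40.3% ± 0.918. In adipocytes Hk3 fell from 9.53, 7.50 and 8.06 to 3.55, 3.50 and 3.01 CPM (log2 fold change -1.32, SE 0.19, adjusted p = 3.45e-07). The summed macrophage markers were lower beside it, with 3 of 6 called lower in macrophages and 1 of 6 in adipocytes, from between 16964 and 17131 CPM to between 10516 and 11061 CPM in macrophages and from between 282 and 334 to between 247 and 272 CPM in adipocytes, and the part of these and of the proliferation markers, which fell in macrophages, in the Hk3 values was not tested. Hk3 per 1000 CPM of those markers was 8.04 to 8.88 in the macrophage controls and 6.41 to 6.74 with butyrate. Hk2 rose in hepatocytes (log2 fold change 0.75, SE 0.14, adjusted p = 2.74e-05) and myotubes (log2 fold change 0.36).

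Pfkl, the liver phosphofructokinase, fell in hepatocytes from 132, 192 and 142 to 85.5, 91.7 and 82.1 CPM (log2 fold change -0.84, SE 0.14, adjusted p = 3.60e-06), by 0.59 on the log2 scale in macrophages and by 0.37 in adipocytes, where the call was lost without control library 1, with -0.22 (adjusted p = 0.188), or butyrate library 2, with -0.35 (adjusted p = 0.0518), and with library totals alone, at -0.28 (adjusted p = 0.0745). Pfkp rose in myotubes from 36.6, 41.0 and 38.7 to 77.0, 82.8 and 74.8 CPM (log2 fold change 1.01, SE 0.14, adjusted p = 1.99e-07), by 0.68 in macrophages and by 0.47 in adipocytes. In macrophages with butyrate Pfkp held 42.0, 41.9 and 41.4% of the family by merged exons and came first, as it already did in the controls with either other length measure. The leading isozyme differed between control and butyrate in 4 of 42 pairs of family and cell type, namely the hexokinases of hepatocytes, phosphofructokinase of macrophages, Pfkfb of myotubes and PEP carboxykinase of adipocytes. These switches depended on the length measure: 3 pairs differed by mean transcript length, of which 1, Pfkfb of myotubes, is among the 4 (with Pfkfb2 in front there), and 3 differed with no length correction, of which 0 are among them. With bOHB the leading isozyme differed from that of the controls in 2 of the 42 pairs by merged exons, 1 by mean transcript length and 3 with no length correction. Gpi1, the isomerase of hexose phosphates, rose in hepatocytes (log2 fold change 0.71, SE 0.13, adjusted p = 1.77e-05), and Tpi1, the triose phosphate isomerase, fell there (log2 fold change -0.58, SE 0.12, adjusted p = 1.62e-04). Aldoa fell slightly in macrophages, myotubes and hepatocytes (log2 fold changes -0.24, -0.30 and -0.29). Those Aldoa calls were lost without any 1 of the 6 macrophage libraries (adjusted p between 0.0507 and 0.105), without myotube butyrate library 3, with -0.19 (adjusted p = 0.0690), and without hepatocyte control library 2, with -0.19 (adjusted p = 0.107). Scaled by library totals alone the macrophage and myotube calls of Aldoa also ended, with -0.01 (adjusted p = 0.925) and -0.17 (adjusted p = 0.0972).

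Of the 9 genes of the triose phase, from Gapdh to pyruvate kinase, 2, 5, 3 and 1 were called in adipocytes, macrophages, myotubes and hepatocytes, beside 61%, 65%, 66.5% and 63.5% of all genes. Gapdh, Pgk1 and Eno1, the main genes of their steps in most of the cell types, were called in none of the 4, as 6.86% of all genes were. Gapdh had 4534, 4929.7 and 4288 CPM in hepatocyte controls and 4607, 4751 and 4376 CPM with butyrate, a log2 fold change of 0.00 with a 95% interval of -0.23 to 0.23. The intervals of the Gapdh change were -0.21 to 0.25 in adipocytes, -0.37 to 0.09 in macrophages and -0.46 to 0.01 in myotubes. For Pgk1 they reached from -0.41 in adipocytes to 0.38 in hepatocytes. In macrophages Pgam1 fell by 0.38 and Pkm by 0.28 on the log2 scale, and the Pkm call (adjusted p = 0.0413) was lost with RLE factors (adjusted p = 0.0571) and without any 1 of the 6 libraries, with values from -0.28 to -0.24. Scaled by library totals alone neither was called, with -0.16 (adjusted p = 0.292) for Pgam1 and -0.05 (adjusted p = 0.726) for Pkm.

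Pgam2, almost absent outside myotubes, rose in macrophages from 0.254, 0.705 and 0.346 to 0.869, 1.64 and 1.73 CPM (log2 fold change 1.74, SE 0.32, adjusted p = 1.80e-05) and in adipocytes from 0.563, 0.345 and 0.211 to 0.887, 0.824 and 0.853 CPM (log2 fold change 1.19, SE 0.37, adjusted p = 0.00607), with no overlap between groups but levels of less than 2 CPM. The myotube markers given above also rose in these macrophage libraries, and their part in the Pgam2 value was not tested. In hepatocytes both lactate dehydrogenases rose. Ldhb, the heart form, went from 0.314, 0.369 and 1.01 to 3.07, 3.91 and 3.36 CPM (log2 fold change 2.59, SE 0.33, adjusted p = 3.85e-08), and Ldha from 1539, 1819 and 1400.2 to 2653, 2599.7 and 2419 CPM (log2 fold change 0.69, SE 0.13, adjusted p = 1.73e-05). In macrophages Ldhb rose by 0.53 on the log2 scale, and neither gene was called in adipocytes or myotubes.

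Pfkfb1 fell in macrophages from 1.99, 2.47 and 2.98 to 1.09, 0.624 and 1.06 CPM (log2 fold change -1.43, SE 0.26, adjusted p = 1.50e-05), in adipocytes from 11.6, 17.2 and 15.5 to 7.05, 7.59 and 7.54 CPM (it fell by 1.00 on the log2 scale, SE 0.16, adjusted p = 2.50e-06) and in hepatocytes by 0.70 on the log2 scale. In hepatocytes the family went from a mix of Pfkfb3 and Pfkfb1 to 61.1% ± 1.76 Pfkfb3 and 11.2% ± 0.710 Pfkfb1.

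The gluconeogenic genes of hepatocytes split. G6pc fell from 15.8, 14.6 and 11.2 to 7.52, 7.48 and 5.40 CPM (log2 fold change -1.02, SE 0.25, adjusted p = 0.00142), beside the fall of Pck1, and Pck2 fell by 0.59 on the log2 scale. Fbp1 rose from 62.6, 82.5 and 55.1 to 148, 138 and 137 CPM (log2 fold change 1.08, SE 0.20, adjusted p = 1.32e-04), a call that DESeq2 did not make. Pcx rose from 179, 249 and 203 to 343, 310.5 and 316 CPM (log2 fold change 0.62, SE 0.10, adjusted p = 5.24e-06), and Fbp2 by 0.72. The transporter Slc2a2, which also lets glucose out of liver cells, rose from 6.52, 8.24 and 8.52 to 18.5, 19.9 and 18.9 CPM (log2 fold change 1.30, SE 0.17, adjusted p = 5.80e-07). The treated and control libraries did not overlap for any of these 7 genes. Endothelial markers fell in the same libraries, and their part was not tested. Pck2 also fell in macrophages, from 58.9, 56.0 and 59.4 to 28.4, 31.4 and 31.4 CPM (log2 fold change -0.93, SE 0.09, adjusted p = 5.26e-11), and Pcx rose there and in myotubes, by 0.68 and 0.87.

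Members were grouped by their control level. Of the 51 pairs of member and cell type at 100 CPM or more in the controls, 19 were called, or 37.3%, against 69.3% of such pairs over all genes, and their median absolute log2 fold change was 0.150 against 0.308. Of these 51 pairs 2 were called with an absolute log2 fold change of at least 1, beside 8.72% of such pairs over all genes: Slc2a1 in hepatocytes, which rose, and Hk3 in macrophages, which fell. At 10 to 100 CPM 33 of 40 pairs were called (72.6% over all genes), and at 1 to 10 CPM 20 of 22 (63.6%). The limits of these classes were chosen after the values were seen, and below 1 CPM all 11 called of 27 pairs rose, at levels from which a fall would be hard to detect (40.2% called over all genes).

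**Figure D4:**
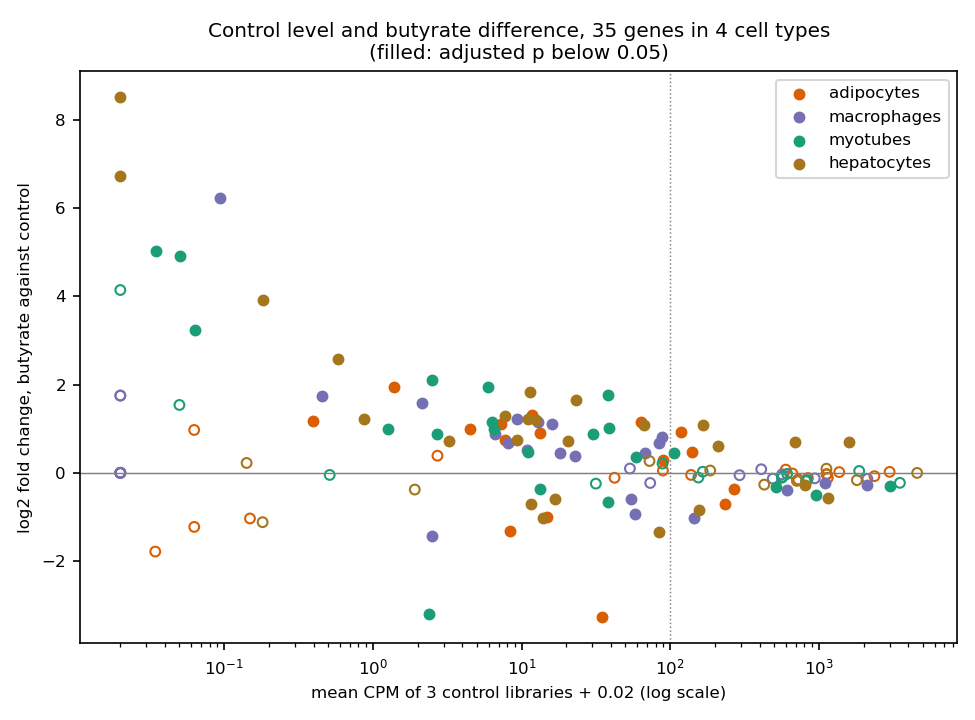
Log2 fold change with butyrate (y axis) against the mean control level (CPM plus 0.02, log x axis) for each of the 35 genes in each of 4 cell types, filled where the adjusted p was below 0.05, with a line at 100 CPM. Pairs at 100 CPM or more cluster near 0, with a median absolute change of 0.150.

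Added together, the 35 genes came to 14261 ± 1979 CPM in adipocyte controls and 14067 ± 310 CPM with butyrate (SD, n = 3), 13974 ± 1382 and 14984 ± 583 CPM in hepatocytes, and 14040 ± 788 and 12603 ± 1220 CPM in myotubes, with overlapping groups in these 3 cell types. In macrophages it went from 9353 ± 102 to 8468 ± 77.5 CPM, with all 3 treated libraries under all controls, and the direction turned when libraries were scaled by their totals alone, with 9639, 9495 and 9449 CPM in the controls and 10052, 9970 and 10196 CPM with butyrate, all above the controls. An exact permutation test of 3 libraries against 3 cannot give a p below 0.1.

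Some butyrate values in myotubes moved with the hepatocyte markers of their libraries. Pklr had 0.0917, 0 and 0 CPM in the controls and 0.244, 2.39 and 0.537 CPM with butyrate (log2 fold change 4.92, SE 0.99, adjusted p = 1.55e-04), where hepatocyte markers were 28.4, 517 and 118 CPM. Fbp1 had 0, 0.0440 and 0 and 0.0407, 1.62 and 0.313 CPM (log2 fold change 5.03, SE 1.50, adjusted p = 0.00650), and Pck1 0, 0.0881 and 0.0440 and 0.0814, 1.09 and 0.224 CPM (log2 fold change 3.25, SE 1.31, adjusted p = 0.0320), with groups that overlapped for both. All 3 genes were highest in library 2, as the markers were. Pklr per 1000 CPM of the markers was 8.58, 4.62 and 4.56 in these libraries and 4.56 to 6.14 in hepatocytes over controls, bOHB and butyrate. For Fbp1 the values were 1.43, 3.13 and 2.66, against 1.64 to 2.33 in hepatocyte controls, 1.94 to 2.21 with bOHB and 3.41 to 3.62 with butyrate. For Pck1 they were 2.86, 2.11 and 1.90, against 2.40 to 2.57, 2.38 to 3.25 and 0.737 to 0.953 in the same order. The part of the markers in these values was not tested. G6pc had counts in library 2 alone, at 0.283 CPM.

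Myotube butyrate libraries 2 and 3 were left out in a further fit, which leaves 1 butyrate library whose spread is taken from the other groups. Pck1 was then at 0.81 and Fbp1 at 1.19, and leaving out library 2 alone ended both calls, with 1.62 (adjusted p = 0.404) for Pck1 and 3.09 (adjusted p = 0.0962) for Fbp1. The Pck1 call was also lost with limma-voom (adjusted p = 0.119), without control library 1, with 2.74 (adjusted p = 0.0923), or control library 3, with 3.24 (adjusted p = 0.0720). With butyrate libraries 2 and 3 left out Pfkm at -0.19, Pfkfb3 at 0.40, Aldoa at -0.22 and Pck2 at -0.33 also lost their calls. Slc2a1, Slc2a3, Hk1, Eno2, Pfkfb2 and Pfkfb4 kept theirs. With control libraries 1 and 2 left out, which had the most macrophage marker counts, 1 control library remained and its spread was likewise taken from the other groups. Then Aldoa, Pfkfb3, Pck1, Pck2, Fbp1 and Fbp2 lost their calls, Fbp2 with 0.59. Pklr kept its call in both, at 2.84 and 7.53.

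Hk3 in myotubes moved with the macrophage markers. It had 3.03, 2.64 and 1.41 CPM in the controls and 0.0407, 0.526 and 0.179 CPM with butyrate, without overlap (log2 fold change -3.20, SE 0.39, adjusted p = 2.54e-08). The call held under every alternative tried, with values from -5.64 to -2.46. Per 1000 CPM of macrophage markers the controls had 11.2, 12.1 and 13.3 and the butyrate libraries 2.62, 7.67 and 7.18. Each library with more of the markers had more Hk3 within the controls and within the butyrate group, and the part of the markers in the fall was not tested.

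**Figure D5:**
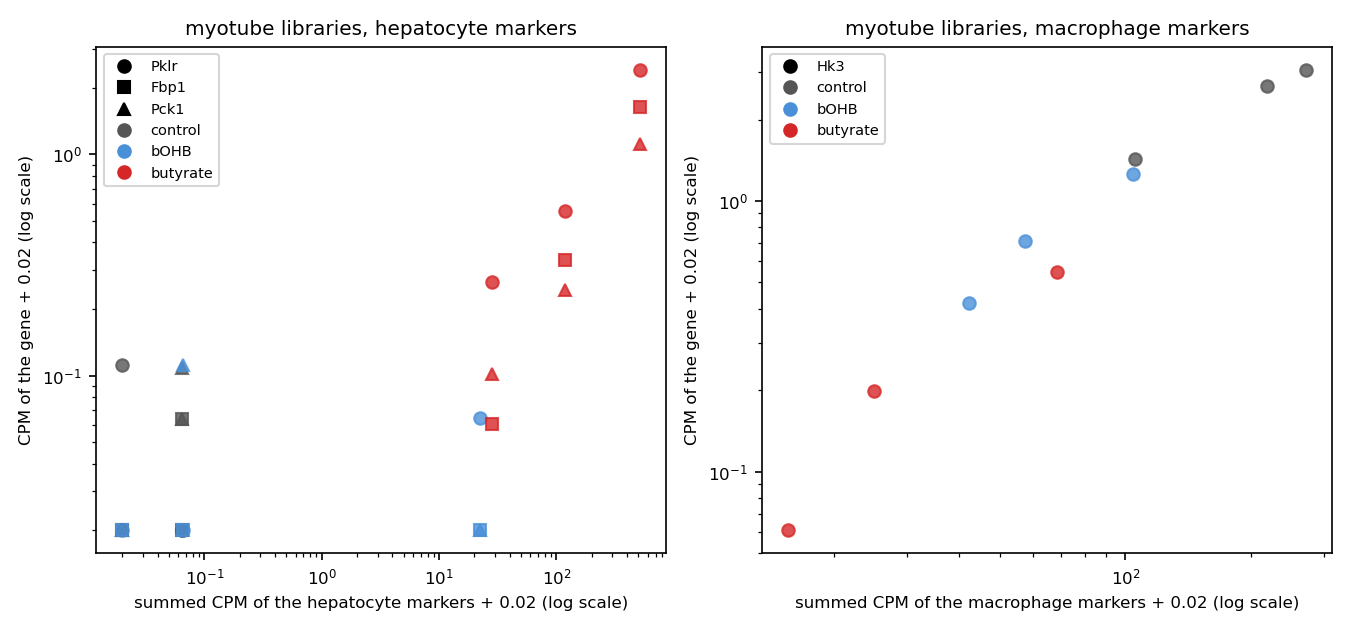
Level of Pklr, Fbp1 and Pck1 (left) and of Hk3 (right) in the 9 myotube libraries (CPM plus 0.02, log y axis) against the summed hepatocyte or macrophage markers of the same library (CPM plus 0.02, log x axis), 1 point a gene and library, coloured by treatment. Butyrate library 2 has the most hepatocyte markers, 517 CPM, and the most Pklr, Fbp1 and Pck1.

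The effect of butyrate differed between the 4 cell types for 24 of the 35 genes by a quasi-likelihood F test of the interaction, against 74.5% of all genes. The same edgeR test called none for bOHB, against 0.978% of all genes; 1 of the 35 had an unadjusted p below 0.05, and DESeq2 called 1, beside 8.26% of all genes at that p and 334 genes called by DESeq2. Among the 24 were the 5 of opposite direction, and 6 of the 7 that rose in all 4 cell types, with Aldoc the exception.

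With bOHB few members were called. None of the 35 was called in adipocytes, macrophages or hepatocytes by edgeR's quasi-likelihood test, where 0.00652%, 0% and 0.00652% of all genes were called, and 0, 0 and 2 members there had an unadjusted p below 0.05, beside 7.15%, 2.33% and 5.51% of all genes. limma-voom and DESeq2 also called none of the 35 in these 3 cell types. Libraries of bOHB and control did not overlap for 1, 5 and 3 members, against 12.7%, 11.1% and 6.71% of all genes. Among members at 10 CPM or more in the controls the log2 fold changes ran from -0.23 (Gpi1) to 0.30 (Pck1) in 23 genes of adipocytes, from -0.13 (Pfkfb2) to 0.09 (Pkm) in 22 of macrophages and from -0.23 (Pfkfb3) to 0.35 (G6pc) in 24 of hepatocytes. The 95% intervals of those changes stayed between -0.42 and 0.43 in macrophages, between -0.52 and 0.72 in adipocytes and between -0.56 and 0.84 in hepatocytes, so larger changes of these genes lay outside them.

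In myotubes bOHB changed 2 of the 35, 1 in each direction, where 2.91% of all genes were called, 0.346% higher and 2.56% lower, and 1.9% with an absolute log2 fold change of at least 1. In all, 7 members there had an unadjusted p below 0.05, beside 13.7% of all genes. Both called members also had an unadjusted p below 0.001, as 2.56% of all genes did, while in adipocytes, macrophages and hepatocytes no member reached it (0.169%, 0.0261% and 0.163% of all genes). Eno2 rose from 5.73, 5.59 and 6.47 CPM in the controls to 7.71, 8.75 and 7.27 CPM (log2 fold change 0.42, SE 0.11, adjusted p = 0.0248). All bOHB libraries lay above all controls, and the butyrate libraries, at 22.5, 24.8 and 20.9 CPM, lay above both. Hk3 fell from 3.03, 2.64 and 1.41 to 0.689, 0.400 and 1.24 CPM (log2 fold change -1.59, SE 0.31, adjusted p = 0.00181), without overlap. Hk3 per 1000 CPM of macrophage markers was 11.2, 12.1 and 13.3 in the controls and 12.0, 9.46 and 11.9 with bOHB. The part of the macrophage markers in the Hk3 value was not tested.

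Both calls were lost when control libraries 1 and 2, with macrophage markers of 271 and 218 CPM, were left out, at -0.85 for Hk3 and 0.29 for Eno2. That fit has 1 control library, with its spread taken from the other groups, so a lost call in it decides little. The Eno2 call was also lost without control library 1 or 2 or bOHB library 1 or 2 alone, with values from 0.34 to 0.43. It was also lost with limma-voom, the method of the study (adjusted p = 0.0565), with library totals alone (adjusted p = 0.0649) and with no filter on low counts (adjusted p = 0.144). With the myotube libraries fitted alone neither gene was called, at values close to those above, -1.63 (adjusted p = 0.372) for Hk3 and 0.39 (adjusted p = 0.303) for Eno2. Proliferation markers, given above, were also lower with bOHB in these libraries, and their part was not tested.

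Members that did not pass the test in myotubes with bOHB are given by their values. All 3 bOHB libraries lay above all controls for 15 of the 35 genes, against 14.6% of all genes, and below for 1, Hk3, against 8.34%. The median log2 fold change of the 35 was 0.13 beside 0.02 over all genes. Scaled by library totals alone, these medians were 0.07 and -0.03, and 9 members lay above all controls, against 6.56% of all genes. Aldoa had 2815, 3158 and 3011 CPM in the controls and 3539, 3625 and 3438 CPM with bOHB, a log2 fold change of 0.24 with a 95% interval of 0.05 to 0.43 (adjusted p = 0.223). Gapdh had 3169, 3673 and 3685 and 4064, 4305 and 3803 CPM (log2 fold change 0.21, interval -0.02 to 0.44), and Tpi1 529, 593 and 590.4 and 694, 751 and 681 CPM (log2 fold change 0.31, interval 0.06 to 0.57). None of these 3 passed the test, although their groups did not overlap. The 35 genes summed to 13166, 14696 and 14258 CPM in the myotube controls and to 16105, 16818 and 15589 CPM with bOHB, without overlap under either scaling. Myotube markers summed to 27706, 24335 and 25665 CPM with bOHB against 19528, 23922 and 24660 CPM in the controls, and their part was not tested.

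Butyrate and bOHB share a chain of carbons and differ by a hydroxyl group that bOHB carries, and they were given at the same dose and time, so they were compared directly in the 4 cell types. Butyrate was higher for 11 and lower for 4 of the 35 in adipocytes, 13 and 8 in macrophages, 16 and 12 in myotubes and 18 and 8 in hepatocytes, against 59.5%, 64.7%, 66% and 63.5% of all genes that differed. Of all genes 30%, 31.8%, 33.1% and 30.5% were higher with butyrate and 29.5%, 32.8%, 32.9% and 33% lower. The libraries of the compounds did not overlap for 17, 25, 26 and 29 members (65%, 70.2%, 66.9% and 67% of all genes), and 13, 17, 13 and 23 members had an unadjusted p below 0.001 (44.5%, 49.4%, 49% and 49.2%). Eno2 was higher with butyrate by 4.07 (SE 0.27) in hepatocytes, 1.58 (SE 0.13) in adipocytes, 1.52 (SE 0.10) in myotubes and 1.11 (SE 0.10) in macrophages on the log2 scale, each with an adjusted p of at most 1.85e-11. Pck1 was lower with butyrate by 3.58 in adipocytes, with 55.9, 41.4 and 30.5 CPM under bOHB and 3.06, 3.71 and 3.90 CPM under butyrate, which did not overlap (adjusted p = 1.50e-11).

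In myotubes the direct comparison called 28 members, more than the 21 of butyrate against control. The 7 further ones, Slc2a2, Gpi1, Pfkl, Tpi1, Gapdh, Pgam2 and Ldha, passed the test between the compounds there and not between butyrate and control. Slc2a2 had 0 counts in the bOHB libraries and 7 in the butyrate libraries, of which 5 were in library 2, so it was at least 2.18-fold higher against the floor of 3 counts over the group, and its call was lost without butyrate library 2 (adjusted p = 0.0880). That library also had the most hepatocyte markers, 517 CPM. Slc2a2 per 1000 CPM of them was 1.43, 0.391 and 0.380 in the butyrate libraries, of which the first and the last rest on 1 count each. In hepatocytes it was 0.194 to 0.253 in the controls, 0.276 to 0.289 with bOHB and 0.455 to 0.492 with butyrate. Gapdh had 4064, 4305 and 3803 CPM with bOHB and 3016, 3249 and 2732 CPM with butyrate, without overlap (log2 fold change -0.44, SE 0.11, adjusted p = 0.00129), and its control libraries, at 3169, 3673 and 3685 CPM, lay between and overlapped the butyrate group. With butyrate libraries 2 and 3 left out, 1 butyrate library remains, whose spread is taken from the other groups. Among the 7 the calls of Slc2a2, Gpi1, Tpi1 and Pgam2 were then lost. The calls of Gpi1 and Tpi1 were lost without butyrate library 3, with -0.30 (adjusted p = 0.0604) and -0.25 (adjusted p = 0.0744), and that of Pfkl without butyrate library 1, with -0.32 (adjusted p = 0.0871). Of the 5 myotube markers 4 were called lower with butyrate than with bOHB, with sums between 12127 and 17593 CPM against 24335 to 27706 CPM, and their part in these values was not tested. Scaled by library totals alone Gpi1, Pfkl, Tpi1, Pgam2 and Ldha were not called there (adjusted p between 0.0667 and 0.234).

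Several abundant genes did not pass the test between the compounds, and their intervals bound the difference. For Pgk1 the 95% interval of the log2 difference was -0.19 to 0.38 in adipocytes, -0.34 to 0.24 in macrophages, -0.57 to 0.00 in myotubes and -0.25 to 0.33 in hepatocytes. For Eno1 the intervals were -0.17 to 0.29, -0.36 to 0.09, -0.36 to 0.09 and -0.40 to 0.05 in the same order. Slc2a1 in macrophages was the member of the 7 above that missed the threshold, at 0.40 with an interval of 0.02 to 0.78 (adjusted p = 0.0583). The comparisons of either compound with control share their control libraries, so their values are given side by side only.

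Some members share reads with other genes. Eno1b, a copy of Eno1, reached 61.6 CPM, and the strand setting of the counting is not given in the sources used here, so reads of Gapdh and Iffo1 (up to 232 CPM), Pfkp and Pitrm1 (up to 127 CPM), Pfkm and Senp1 (up to 43.8 CPM), Pfkfb2 and Yod1 (up to 25.7 CPM), Pfkfb1 and Apex2 (up to 19.9 CPM) and Hk3 and Unc5a (up to 19.4 CPM), which overlap on opposite strands, cannot be told apart with certainty. Pkm overlaps Gm49759 on the same strand (up to 24.8 CPM). The neighbours' values stand beside the low members Pfkfb1, Pfkfb2 and Hk3 in particular, and their part in the changes was not tested.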

How the data were processed

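RNA from 36 libraries was read as paired ends of 150 bases on a BGISEQ-500. The authors quantified the reads with Salmon 1.2.1 against GENCODE M25 transcripts (GRCm38.p6) and summed them per gene with tximport, and the deposited table holds estimated counts for 54347 genes. The study's methods describe a scaling by length and library size. Column totals, from 18366289 to 23221473, do not settle whether the table carries it, and 55.6% of the values above 0 are exact whole numbers. The values were used as estimated counts without length offsets. The strand setting is not given in the sources used here.

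After rounding, the estimated counts went into the quasi-likelihood test of edgeR 4.0.16 (R 4.3.3) with TMM factors and 1 mean per group over all 36 libraries, for 15340 genes above 1 CPM in at least 6 libraries. P-values were adjusted by the Benjamini-Hochberg method over these genes, with a threshold of 0.05. The study used limma-voom, which is given as an alternative. RPKM used merged exon lengths of GENCODE M21, matched for 54094 genes. Scripts were tested on simulated data. Alternatives were limma-voom (limma 3.58.1), DESeq2 1.42.0, other scaling and filters, a replicate block, the libraries of 1 cell type, an unadjusted p below 0.001, leaving out each library, other lengths and another prior count.

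Values in every library are given for members called with butyrate at an absolute log2 fold change of at least 1 without overlap (at most 10 a comparison), members called with bOHB, and leading isozymes. The members and lists were chosen with earlier results of these data known. Groups come from the submitters' labels, and no sample was left out. Some genes of related families are not reported here. Libraries with the same number did not deviate together: 4 of 36 pairs correlated above 0.1, with r from -0.26 to 0.27, so the numbers were not taken as pairs.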

Additional observations from a re-analysis of the deposited data

Results flagged for a closer look

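The change with butyrate differed between the 4 cell types for 24 of the 35 genes, by edgeR's quasi-likelihood F test of the interaction with Benjamini-Hochberg adjustment over all genes tested, as it did for 74.5% of all genes. Among the glucose transporters the adjusted p was 6.32e-04 for Slc2a1, 2.36e-07 for Slc2a3 and 6.04e-14 for Slc2a4. Among the hexokinases the adjusted p was 1.25e-07 for Hk1, 4.00e-05 for Hk2 and 6.88e-04 for Hk3. Among the hexose steps the adjusted p was 3.90e-04 for Gpi1, 0.0400 for Pfkl, 4.89e-12 for Pfkm, 0.00724 for Pfkp and 0.0151 for Tpi1. Among the later steps the adjusted p was 3.08e-05 for Pgam2, 6.17e-08 for Eno2, 1.86e-09 for Eno3 and 0.00185 for Pklr. Among the lactate dehydrogenases the adjusted p was 1.95e-04 for Ldha and 2.12e-06 for Ldhb. Among the bifunctional regulators the adjusted p was 0.0422 for Pfkfb1, 2.32e-04 for Pfkfb2, 1.75e-11 for Pfkfb3 and 1.00e-04 for Pfkfb4. Among the gluconeogenic genes the adjusted p was 1.31e-05 for Pck1, 6.22e-06 for Pck2 and 1.83e-04 for Pcx. 

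Slc2a4, Pfkm and Eno3 rose with butyrate in macrophages and fell in myotubes, Pfkfb3 rose in hepatocytes and fell in adipocytes, and Slc2a1, Slc2a3, Hk1, Eno2, Pfkfb2 and Pfkfb4 rose in all 4 cell types by different amounts. Eno2 ranged from 1.23 in macrophages to 3.91 in hepatocytes on the log2 scale, and Slc2a1 from 0.45 in macrophages to 1.78 in myotubes. The values of Hk3, Pklr and Pck1 in myotubes stand beside marker genes of other cells in those libraries, whose part was not tested.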

How the results depend on the processing

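Of 175 calls of a member in a comparison, 129 held under every alternative tried for them, 46 were lost under at least 1, and none changed direction. An unadjusted p below 0.001 lost 39, library totals alone 19, the libraries of 1 cell type 7, limma-voom 5, DESeq2 2, no filter 2, RLE factors 1, filterByExpr 1 and the replicate block 1, and leaving out 1 library lost 65 of 1050 recomputed calls. For bOHB in myotubes the count of 2 became 1 with limma-voom, library totals alone or no filter, 0 with the libraries of myotubes alone, 0 without the 2 controls with the most macrophage marker counts (a choice made after seeing the data that leaves 1 control) and 1 to 2 without 1 library. The bOHB interaction count of 0 became 1 with DESeq2, RLE factors, library totals alone, no filter or an unadjusted p below 0.001, and 0 to 1 without 1 library. For butyrate against bOHB in myotubes 13 passed an unadjusted p below 0.001 in place of 28. All genes called for bOHB in myotubes were 446 by edgeR's quasi-likelihood test, 353 with limma-voom and 486 with library totals alone. For the bOHB interaction they were 150 by edgeR, 334 with DESeq2, 166 with RLE factors and 165 with library totals alone. The cause of the changes in the counts of members was not tested.

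Leaving out 1 library gave 15 to 17, 18 to 19, 20 to 22 and 25 to 26 members for butyrate against control in adipocytes, macrophages, myotubes and hepatocytes, and 14 to 17, 19 to 21, 24 to 27 and 24 to 27 against bOHB. The interaction count of butyrate was 21 to 25 and the families with 1 leader 4 to 5. With the replicate block the members called were 17, 22, 23 and 27 for butyrate, 0, 0, 2 and 0 for bOHB and 15, 22, 29 and 27 between the compounds, and 13 of 36 libraries correlated best with their own number. At low counts precision was limited: 21 of 140 mean levels moved by more than their spread with a prior count of 0.5.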

Other observations

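Genes around the pathway also changed with butyrate, by edgeR's quasi-likelihood test, under which 61%, 65%, 66.5% and 63.5% of all genes were called in adipocytes, macrophages, myotubes and hepatocytes. These shares are the background for each count here, and no list was tested against them. Of 12 tested genes of other hexose entry and exit, 6 rose in adipocytes, 7 rose and 1 fell in macrophages, 8 rose and 1 fell in myotubes, and 6 rose and 4 fell in hepatocytes. The transporter gene Slc2a8 rose in all 4 cell types, by 0.81 in adipocytes, 1.60 in macrophages, 1.15 in myotubes and 1.27 in hepatocytes on the log2 scale. Tigar, which lowers fructose 2,6-bisphosphate, rose by 1.33, 0.83, 1.14 and 0.73 in the same order, and Bpgm, which makes 2,3-bisphosphoglycerate, by 1.14, 1.13, 0.48 and 0.75.

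Of 7 genes of the pentose phosphate pathway, 2, 4, 1 and 6 were called in adipocytes, macrophages, myotubes and hepatocytes, beside the shares of 61%, 65%, 66.5% and 63.5%. G6pdx, its first enzyme, rose by 1.76 in hepatocytes and fell in macrophages, with a log2 fold change of -0.27. Of 11 glycogen genes 6, 5, 6 and 9 were called, beside the same shares. Pygb, the brain glycogen phosphorylase, rose by 1.71, 0.64, 1.59 and 1.08, while the branching enzyme Gbe1 had log2 fold changes of -0.42, -0.98, -0.42 and -0.43. Of 14 genes of pyruvate use 6, 10, 6 and 9 were called, beside the same shares, and Pdha1, a subunit of pyruvate dehydrogenase, fell in all 4, with -0.29, -0.25, -0.21 and -0.61.

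Of 12 regulators of these pathways 8, 8, 8 and 9 were called, near the same shares. Myc, a transcription factor that acts on glycolytic genes, fell in all 4 cell types, with log2 fold changes of -0.89, -1.06, -1.19 and -1.72. Ppargc1a, a coactivator of gluconeogenic and mitochondrial genes, rose by 0.72, 2.92, 1.50 and 2.91. None of these lists had a called gene with bOHB by edgeR in any cell type, and the genes named here were chosen after their values were seen.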
